A study of Homo sapiens with 6 samples.

Results

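RPL23 and RPL7A, which encode proteins of the large ribosomal subunit, UBB, which encodes a chain of ubiquitin units, and TFRC, which encodes the receptor for iron-loaded transferrin, were followed through 6 cultures labelled PC3. PC3 is an established human prostate cancer line, first grown from a bone metastasis. These 4 of 770 probes were selected on measured values, namely that their share of the counts differed between vectors or between times in these same libraries. Their levels and differences are therefore given as a description, with no test. UBB and TFRC also belong to the 20 housekeeping genes of the panel, whose counts are usually used to bring libraries to a common scale.

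Ribosomal protein genes, ubiquitin genes and the transferrin receptor are tied to cell growth in different ways. Ribosomal protein messenger RNAs begin with a run of pyrimidines, the TOP element, through which mTOR signalling sets their translation. Ubiquitin attached to proteins marks them for the proteasome, and UBB is one of the stress-inducible genes that supply ubiquitin. TFRC carries iron into dividing cells, and iron regulatory proteins stabilise its messenger RNA when iron is scarce. Its transcription is known to be raised by MYC and by hypoxia-inducible factors.

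The RefSeq promoter table (build GRCh38.p14) held entries for 3 of the 4 genes, RPL7A, UBB and TFRC. The bases around the transcription start of RPL7A (chromosome 9, plus strand, chr9:133348158-133348237) and TFRC (chromosome 3, minus strand, chr3:196082071-196082150) are printed because, among the 3 genes with an entry, they had the highest and the lowest difference between the vectors. Each stretch runs 5′ to 3′, with 60 bases before the start and 20 from it. Capitals mark the unbroken run of C and T that covers the start in RPL7A and the letters TATAAA in TFRC.
RPL7A: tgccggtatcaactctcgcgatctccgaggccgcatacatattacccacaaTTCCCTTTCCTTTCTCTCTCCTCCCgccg
TFRC: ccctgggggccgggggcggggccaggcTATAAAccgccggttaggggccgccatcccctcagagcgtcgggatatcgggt
The run in RPL7A was 25 bases long, from 9 bases before the start to the 16th base of the transcript. Of 35116 RefSeq promoters of the same length, 2.9% had a run of at least 10 C or T over the start. No such run covered the start of TFRC or either of the 2 starts listed for UBB. TATAAA, searched on both strands of each whole promoter entry, was found in RPL7A and TFRC and in 11.5% of all promoters. GGGCGG, searched likewise, was found in all 3 genes and in 45.0% of promoters, and the E-box CACGTG in none of the 3 and in 7.26% of promoters. These matches describe the reference sequence and were not tested as sites. RPL23 lies on chromosome 17 (38847860 to 38853721) and UBB on chromosome 17 (16380779 to 16382745) in the same build, and TFRC and RPL7A span 196049284 to 196082090 and 133348218 to 133351426 on their chromosomes.

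Messenger RNA was counted with the nCounter PanCancer IO 360 panel, in which a fluorescent barcode is counted for each bound RNA molecule without amplification. Transfected cells carried either no insert (the empty vector, EV) or an insert expressing BTN1A1, a butyrophilin membrane protein. Each was left untreated, or given 100 ng/ml of interferon-gamma for 24 or 48 h, and the untreated cultures were labelled 48 h. All 6 groups held 1 library each, so no group has a spread of its own, and 0 probes measured BTN1A1 itself. The labels do not say whether the transfected cells were a pool or 1 clone.

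Total counts ran from 286341 to 441611 in the EV libraries and from 221633 to 297242 in the other vector. PC3 cells are known to have lost STAT3. STAT3 stood at 10 to 20 counts in EV, against 383 to 593 in the libraries labelled BTN1A1. The epithelial genes EPCAM and CDH1 were at 210 to 242 and 145 to 197 in EV against 29 to 59 and 26 to 31. These genes go against the label of the BTN1A1 cultures, which are called the libraries labelled BTN1A1. A vector difference below cannot be told apart from a difference in the origin of the cultures. The interferon target IRF1 went from 169 counts to 5153 and 6174 in EV and from 75 to 482 and 313 in the libraries labelled BTN1A1. Low counts were kept there by 3 of the 8 interferon targets checked. IDO1 gave 56, 7385 and 10306 counts in EV against 34, 26 and 37, GBP1 gave 22, 3049 and 3691 against 8, 15 and 22, and CXCL10 gave 8, 401 and 253 against 9, 16 and 7. Of 77 listed immune-cell markers 71 were measured, with a median of 19 to 25 counts per library, a gauge of background, and summed scaled counts of 1635 to 2238 in EV and 1267 to 1831 in the libraries labelled BTN1A1. The 3 measured of 21 epithelial markers summed to 687.8 to 1408 against 55.44 to 114.9, and the 12 measured of 26 endothelial and fibroblast markers to 2656 to 4004 against 268.4 to 436.4. In EV most of the latter sum came from CDH11, with 1504, 2241 and 2694 counts, and COL6A3, with 450, 871 and 341. CDH5, TIE1, FAP, PDGFRB, THY1 and TWIST1 gave 18 to 41 counts in both vectors. KDR was higher in EV, at 111, 122 and 184 counts against 21, 17 and 23, and so was PECAM1, at 34, 37 and 46 against 12, 20 and 11. COL5A1 gave 107, 149 and 66 against 80, 47 and 58, and OLFML2B 80, 35 and 32 against 39, 33 and 61. The markers thus did not move as 1 set, and the sum is not read as endothelial or fibroblast content. The epithelial sums and the endothelial and fibroblast sums move with the vector, while the immune sums overlapped between the vectors. The part of any of these sums in the results was not tested.

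The 4 genes together held 9.76%, 7.37% and 5.12% of all counts in the EV libraries (untreated, 24 h and 48 h). In the libraries labelled BTN1A1 they held 33.2%, 26.6% and 31.8%. Exact 95% binomial intervals, which cover counting error only, were 9.66 to 9.87% for the untreated EV library and 33.0 to 33.4% for the untreated library labelled BTN1A1. The 3 shares of each vector did not overlap those of the other, in genes that were selected on such differences.

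**Figure D1:**
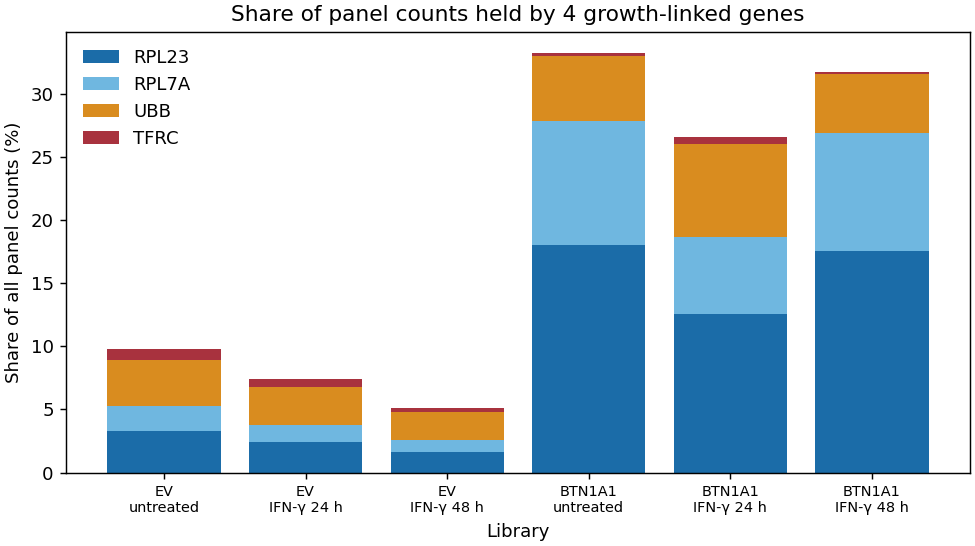
Stacked bars give the share of all panel counts (%, y axis) of RPL23, RPL7A, UBB and TFRC in each of the 6 libraries (x axis). The bars reach 5.12 to 9.76% in EV and 26.6 to 33.2% in the libraries labelled BTN1A1, and the blue ribosomal segments make most of the difference.

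RPL23, a ribosomal protein that also binds the ubiquitin ligase MDM2, gave 9303, 10538 and 6707 counts in the EV libraries (untreated, 24 h, 48 h). It gave 52182, 37221 and 38971 in the libraries labelled BTN1A1. In each of the latter it was the probe with the most counts, whereas in EV it stood at places 6, 7 and 10 of 770. Counts were then scaled by the geometric mean of 18 housekeeping genes, with UBB and TFRC left out so that they did not scale themselves. Scaled RPL23 counts were 9905, 10049 and 7598 in EV. In the libraries labelled BTN1A1 they were 44425, 32753 and 45227. Even the lowest of these was above the highest EV library. RPL23 was 4.49-fold higher in the libraries labelled BTN1A1 without interferon-gamma, 3.26-fold at 24 h and 5.95-fold at 48 h. As a share of all counts the differences were 5.54-, 5.25- and 10.6-fold. The mean log2 difference over these 3 pairs was 2.15 ± 0.43 (SD over 3 pairs, n = 3).

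RPL7A, the other ribosomal protein gene of the 4, followed the same course. Its counts were 5784, 6173 and 3756 in EV and 28581, 18104 and 20613 in the libraries labelled BTN1A1. After scaling these were 6158, 5887 and 4255 against 24332, 15931 and 23922, again with no overlap between the vectors. The vector difference was 3.95-fold untreated, 2.71-fold at 24 h and 5.62-fold at 48 h, with a mean log2 difference of 1.97 ± 0.53 (SD over 3 pairs, n = 3). As a share of all counts it was 4.88-, 4.36- and 9.99-fold.

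Since both probes are read in the same library, the ratio of their counts does not depend on any scaling. RPL23 over RPL7A was 1.61, 1.71 and 1.79 in EV. In the libraries labelled BTN1A1 it was 1.83, 2.06 and 1.89. The ratio thus moved over a narrow range while each gene moved 5.95- and 5.72-fold between its lowest and highest library. It was highest at 24 h in the libraries labelled BTN1A1, 2.06 with a 95% counting interval of 2.02 to 2.09, clear of the interval of every other library. Both genes have processed copies elsewhere in the genome, and the probe sequences were not used here, so counts from such copies cannot be told apart from those of the genes.

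UBB gave 10323, 13365 and 8921 counts in EV and 15003, 22101 and 10444 in the libraries labelled BTN1A1. Scaled counts were 10991, 12745 and 10106 against 12773, 19448 and 12121. The vectors overlapped, since EV at 24 h was above the 48 h library labelled BTN1A1. UBB was 1.16-fold higher untreated, 1.53-fold at 24 h and 1.20-fold at 48 h, a mean log2 difference of 0.36 ± 0.22 (SD over 3 pairs, n = 3). As a share of all counts it was 2.21 to 3.61% in EV and 4.71 to 7.44% in the libraries labelled BTN1A1, without overlap, which made the differences 1.43-, 2.46- and 2.13-fold. Ubiquitin genes have coding repeats that are alike, so a signal from another ubiquitin gene cannot be told apart from that of UBB without the probe sequence. RPL23 over UBB, free of any scaling, was 0.901, 0.789 and 0.752 in EV, against 3.48, 1.68 and 3.73 in the other vector. The ratios of the vectors did not overlap, and in the libraries labelled BTN1A1 the 24 h library had the lowest.

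TFRC ran the other way. Its counts were 2546, 2477 and 1256 in EV and 545, 1664 and 352 in the libraries labelled BTN1A1. Scaled counts were 2711, 2362 and 1423 against 464, 1464 and 408.5. The 24 h library labelled BTN1A1 lay just above EV at 48 h, so the vectors overlapped there. TFRC was 5.84-fold lower in the libraries labelled BTN1A1 without interferon-gamma, 1.61-fold at 24 h and 3.48-fold at 48 h. The mean log2 difference was -1.68 ± 0.93 (SD over 3 pairs, n = 3), the widest spread over pairs among the 4 genes. The size of the difference depended on the scaling. The log2 difference untreated was -2.55, and -1.91 with TMM and -1.81 with total counts less the 4 genes. At 48 h it was -1.80, and -0.97 with total counts and -0.50 with total counts less the 4 genes. At 24 h its direction depended on the scaling too. As a share of all counts TFRC was 0.561% in EV and 0.560% in the library labelled BTN1A1, and after taking the 4 genes out of the total it was higher in the latter by a log2 difference of 0.33. UBB over TFRC was 4.06, 5.40 and 7.10 in EV and 27.5, 13.3 and 29.7 in the other vector. In EV this ratio was highest at 48 h. In the libraries labelled BTN1A1 it was lowest at 24 h, and the counting intervals of the other two libraries overlapped.

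**Figure D2:**
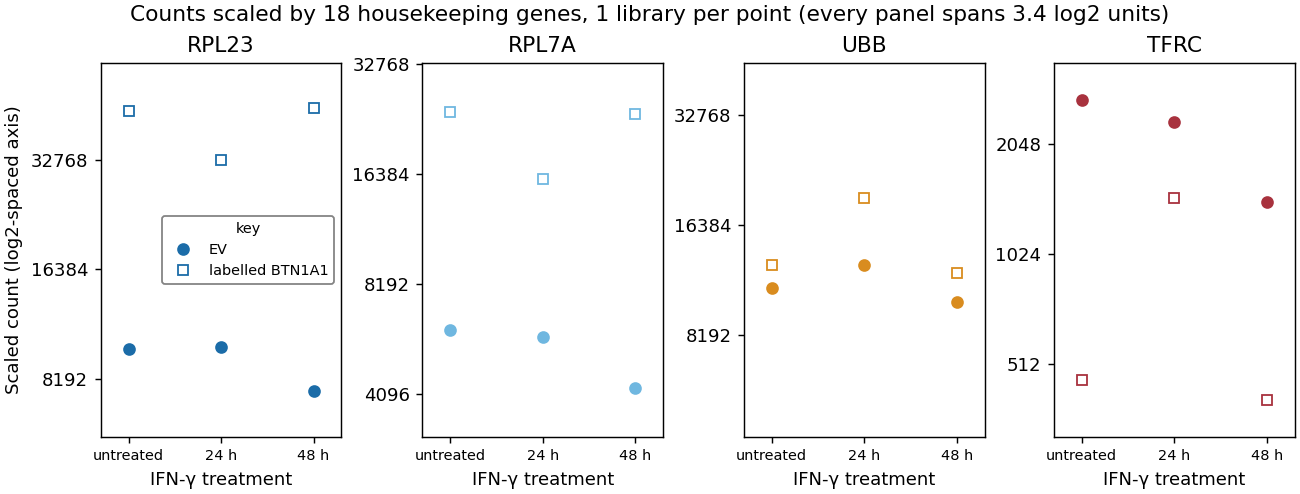
Scaled counts (log2-spaced y axis, each panel spanning 3.4 log2 units) are plotted for untreated, 24 h and 48 h libraries (x axis), with filled circles for EV and open squares for the libraries labelled BTN1A1, 1 library per point. RPL23 and RPL7A stay apart by vector, at 7598 to 10049 against 32753 to 45227 for RPL23, while TFRC is lowest at 464 and 408.5 in the untreated and 48 h libraries labelled BTN1A1.

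Many other genes differed between the vectors, which sets the background for these values. Library against library, 41.2% of the genes that reached 20 scaled counts in either library were at least 2-fold apart without interferon-gamma, 41.6% at 24 h and 40.4% at 48 h. Of the 4 genes, RPL23, RPL7A and TFRC were at least 2-fold apart untreated and at 48 h, and RPL23 and RPL7A at 24 h. The genes had been selected on these differences, so nothing is read from their number. The same holds for the lack of overlap between the vectors given above. The share of all genes without such overlap was not counted. Larger increases than that of RPL23 were found in 21 genes untreated, 31 at 24 h and 19 at 48 h, and larger decreases than that of TFRC in 68, 245 and 142. Nothing is read from these places either, for the same reason. Over the 3 pairs the median log2 difference of 670 genes was -0.38. Against that median RPL23 stood at 2.53, RPL7A at 2.35, UBB at 0.74 and TFRC at -1.30. With TMM scaling the median was 0.02. The TMM differences themselves, not set against that median, were 2.55 for RPL23, 2.37 for RPL7A, 0.77 for UBB and -1.28 for TFRC.

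The second axis of the description is time under interferon-gamma. In EV, RPL23 had a log2 difference of 0.02 at 24 h and -0.38 at 48 h from the untreated library, and RPL7A of -0.07 and -0.53. UBB stood at 0.21 and -0.12, and TFRC at -0.20 and -0.93. In EV all 4 genes were lowest at 48 h of interferon-gamma, where TFRC was 1.91-fold below the untreated library. None of the 4 was 2-fold apart, beside 18.8% of genes at 24 h and 18.1% at 48 h. With total counts RPL7A (log2 -1.12) and TFRC (-1.51) were at least 2-fold below untreated at 48 h, and with total counts less the 4 genes RPL23 (-1.04) was too. Between the 2 treated EV libraries the log2 differences, 48 h minus 24 h, were -0.40 for RPL23, -0.47 for RPL7A, -0.33 for UBB and -0.73 for TFRC, and 6.43% of genes were at least 2-fold apart.

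In the libraries labelled BTN1A1, scaled by housekeeping genes, the 24 h library stood apart from the other two. TFRC went from 464 scaled counts untreated to 1464 at 24 h, a 3.16-fold difference (log2 1.66, counting interval 1.52 to 1.80), and stood at 408.5 at 48 h. Larger increases at 24 h were found in 6 genes of 560. From 24 to 48 h TFRC was 3.58-fold lower, and 0 of 632 genes had a larger decrease. TFRC was selected on differences between vectors or times, and each point is 1 library, so nothing is read from its place among all genes. UBB was 1.52-fold higher at 24 h than untreated and 1.60-fold lower at 48 h than at 24 h. RPL23 and RPL7A went the opposite way, 1.36-fold and 1.53-fold lower at 24 h than untreated, then 1.38-fold and 1.5-fold higher at 48 h than at 24 h. At least 2-fold differences were found in 5.0% of genes for 24 h against untreated, 4.46% for 48 h against untreated and 5.22% for 48 h against 24 h. TFRC was the only one of the 4 among them, in the first and the last comparison. With DESeq2's size factors UBB was also at least 2-fold lower at 48 h than at 24 h (log2 -1.02).

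With the scaling by housekeeping genes, the untreated library and the 48 h library labelled BTN1A1 were, for all 4 genes, nearer to each other than either was to the 24 h library. Their log2 differences, 48 h minus untreated, were 0.03 for RPL23, -0.02 for RPL7A, -0.08 for UBB and -0.18 for TFRC. For RPL23 and RPL7A this ended with other scalings. With TMM, RPL23 at 48 h stood -0.32 from untreated and 0.23 from 24 h, and RPL7A -0.37 and 0.35. With DESeq2's size factors the values were -0.35 and 0.12 for RPL23 and -0.40 and 0.24 for RPL7A. These 2 libraries share the 48 h label and differ in interferon-gamma. The same held for 265 of 670 genes (39.6%) in this vector and for 168 (25.1%) in EV, where UBB alone of the 4 was among them. Culture time, interferon-gamma and the single 24 h library cannot be told apart in the comparison of 24 h with untreated.

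**Figure D3:**
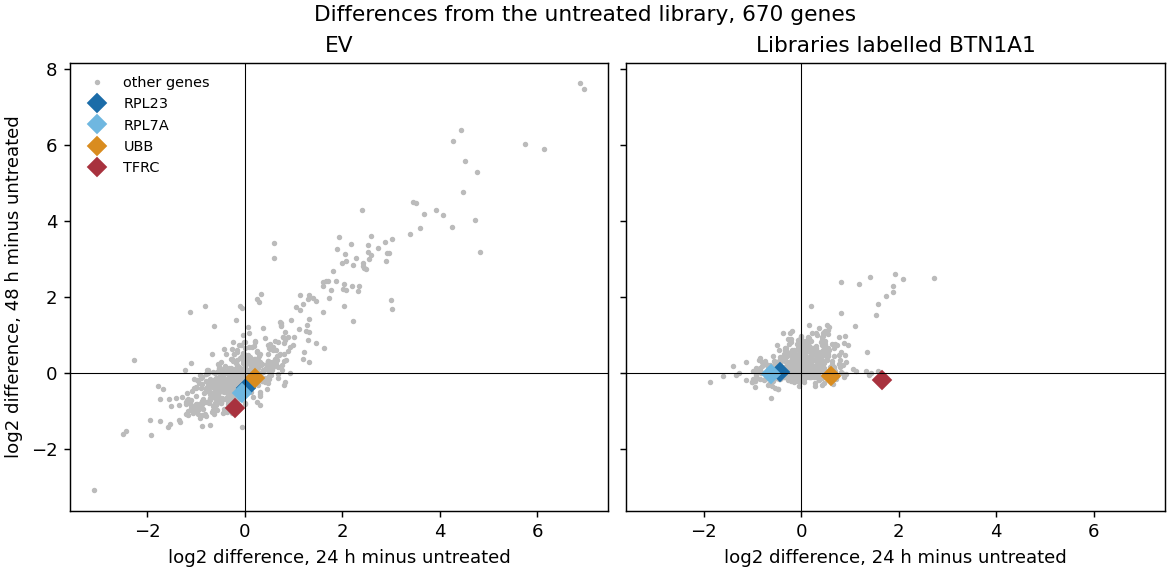
Each point is 1 of 670 genes, with its log2 difference from the untreated library at 24 h (x axis) and at 48 h (y axis), in EV (left) and in the libraries labelled BTN1A1 (right), values under 20 scaled counts being raised to 20. On the right the 4 diamonds lie along the horizontal axis, with TFRC at 1.66 and -0.18, and on the left they lie close to the origin or below it, with TFRC at -0.20 and -0.93.

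Other genes with a like course were sought among the 670 tested genes by the root mean square difference of log2 scaled counts, each centred on its mean over 6 libraries. RPL23 and RPL7A were 0.11 apart by this measure, closer than any other gene was to either, and the median distance of all other genes from RPL23 was 1.31. Both genes were selected on differences between these same libraries, so nothing is read from how near they are. Next to RPL23 stood PRR5, a subunit of the mTORC2 complex (0.16), the interleukin-12 receptor chain IL12RB2 (0.20) and the transcription factor ARNT2 (0.25). The same genes were next to RPL7A, with ARNT2 at 0.15. These 3 genes gave 13 to 23 counts in EV, close to the median of 20 to 25 of the immune markers there, and 51 to 104 in the libraries labelled BTN1A1.

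The genes most like UBB were SLC16A1, a lactate and pyruvate carrier (0.08), OAZ1, the antizyme that limits polyamine synthesis (0.12), and GOT2, the mitochondrial aspartate aminotransferase (0.13). SLC16A1 gave 1167, 1373 and 1028 counts in EV and 1623, 2592 and 1063 in the libraries labelled BTN1A1, with its highest count at 24 h in each vector, as for UBB. In EV that peak depends on the scaling, since UBB as a share of all counts was 3.61% untreated and 3.03% at 24 h. Nearest to TFRC were H2AFX, the histone variant marked at DNA breaks (0.28), the death-domain kinase RIPK1 (0.34) and the glycolytic enzyme PKM (0.37). H2AFX gave 601, 852 and 503 counts in EV and 139, 399 and 105 in the libraries labelled BTN1A1, and in the latter, as with TFRC, the 24 h library was the highest. The distance of TFRC from RPL23 was 2.06, above the median of 1.10 for all other genes from TFRC. These distances describe 6 libraries that share 1 scaling.

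As housekeeping genes UBB and TFRC differed in how steady they were. Over the 6 libraries TFRC had a log2 range of 2.73, the widest of the 20 panel housekeeping genes, and UBB one of 0.94, at place 13. The other 17 described here ranged from 0.22 for the DNA repair helicase ERCC3 to 1.72 for the RNA polymerase subunit POLR2A, with a median of 0.983. These 17 are among the 18 that set the scale, which draws their ranges together, while UBB and TFRC did not take part in it. UBB and TFRC were also selected on differences between these libraries, which the 17 were not. The mean vector difference of the 17 ran from -1.22 to 1.26. From 24 to 48 h, averaged over both vectors, the 17 stayed within -0.42 and 0.45, whereas UBB was at -0.51 and TFRC at -1.29.

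**Figure D4:**
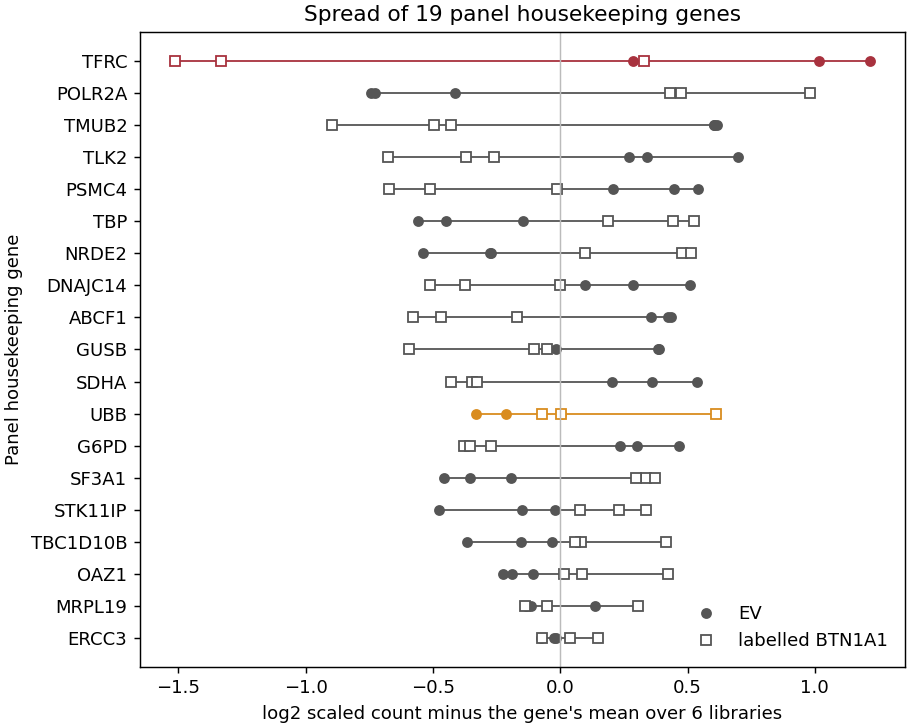
For 19 of the 20 panel housekeeping genes (y axis, widest range at the top) the log2 scaled count minus its mean over 6 libraries is plotted (x axis), with filled circles for EV and open squares for the libraries labelled BTN1A1. TFRC spans 2.73 log2 units, POLR2A 1.72, UBB 0.94 and ERCC3 0.22.

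The other genes of these pathways were tested in edgeR's quasi-likelihood fit over all genes, with vector and condition as additive terms and Benjamini-Hochberg adjustment. A comparison of times thus averages both vectors, and unlike responses of the vectors count as residual spread. A gene that did not pass at 24 h or 48 h is therefore not shown to be unchanged in either vector. Between the vectors 292 of 670 genes passed (43.6%), 76 higher and 216 lower in the libraries labelled BTN1A1. The split was 120 and 150 with total counts, 112 and 156 with TMM and 114 and 167 with DESeq2's size factors. Of the 50 genes called in the lists below, 29 passed in all 13 settings tried. Nothing in the labels speaks of separate cultures beyond these libraries, so the p-values cover their spread alone, technical or not, with 2 residual degrees of freedom per gene. The fit draws the spread of each gene in part from a trend shared across all genes, so the p-values also rest on that trend.

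Among translation and mTOR genes other than RPL23 and RPL7A, 4 of 21 were higher and 6 lower in the libraries labelled BTN1A1, with a median log2 difference of -0.55 beside -0.39 for all genes. The mTOR inhibitor DEPTOR rose by 2.87 (SE 0.40, edgeR adjusted p 0.000329) and the AMPK catalytic subunit PRKAA2 by 2.22 (SE 0.29, edgeR adjusted p 0.00023). The largest difference in the list, -4.19 for RELN, belongs to a secreted matrix glycoprotein and not to the translation machinery. MYC was chosen for mention after its value was seen, because it is known to raise TFRC. The difference of MYC was 0.79 (SE 0.27, edgeR adjusted p 0.0385), while TFRC was lower. The call for MYC ended in 5 of the 6 fits that left out 1 library. Any part of MYC in the level of TFRC was not tested. In this list 3 of the 4 higher and 3 of the 6 lower calls held in all settings. At 24 h and 48 h none of the 21 passed.

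Of 24 ubiquitin and proteasome genes other than UBB, 3 were higher and 10 lower between the vectors, with a median of -0.72. In all settings 1 of the 3 and 7 of the 10 held. The largest differences were those of the interferon-induced members, the immunoproteasome subunits PSMB8 (-6.53, SE 0.56), PSMB10 (-3.31, SE 0.58) and PSMB9 (-2.71, SE 0.49) and the ubiquitin-like ISG15 (-5.58, SE 0.39). UBB itself stood at 0.36. Under interferon-gamma the ubiquitin ligase DTX3L rose at 24 h by 2.22 (SE 0.37, edgeR adjusted p 0.0306), and at 48 h DTX3L by 2.60 (SE 0.38, edgeR adjusted p 0.013) and PSMB9 by 3.54 (SE 0.61, edgeR adjusted p 0.0174). Over all genes 0.746% passed at 24 h and 1.64% at 48 h, and 0 of 670 (0.0%) from 24 to 48 h in edgeR, where 27 had an unadjusted p under 0.05 and DESeq2 called 5. The calls for DTX3L and PSMB9 ended with TMM scaling, with DESeq2's size factors and with a minimum of 50 counts, and both but DTX3L at 48 h also with all 20 housekeeping genes.

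Of 29 proliferation genes, 6 were higher and 5 lower between the vectors (median -0.24). In all settings 4 of the 6 and 2 of the 5 held, and 3 of the 5 lower calls ended with total counts. Cyclins moved both ways, with CCND2 at 6.28 (SE 0.34) and CCNE1 at 1.64 (SE 0.35) higher and CCND1 at -2.88 (SE 0.27) and CCNA1 at -2.74 (SE 0.45) lower. None passed at 24 or 48 h. CCNB1, the mitotic cyclin, gave 2245, 3660 and 2533 counts in EV and 1861, 3936 and 1421 in the other vector, a log2 difference at 24 h of 0.85 (SE 0.33) that did not pass.

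Of 26 tested nutrient and glycolysis genes other than TFRC, 4 were higher and 7 lower between the vectors (median -0.28). In all settings 3 of the 4 and 4 of the 7 held. The hypoxia factor HIF1A (-3.02, SE 0.30), hexokinase HK1 (-2.01, SE 0.30), lactate dehydrogenase LDHA (-1.80, SE 0.26) and PKM (-1.76, SE 0.28) were lower, as TFRC was. Any link of these genes to the level of TFRC was not tested. LDHA gave 5652, 13827 and 4261 counts in the libraries labelled BTN1A1, its highest value at 24 h as for TFRC, but its log2 difference of 1.11 (SE 0.31) at 24 h over both vectors did not pass in edgeR. None of the 26 passed at 24 h, at 48 h or between these times. Of the 18 scaling genes 3 were higher and 5 lower between the vectors, among them POLR2A (1.26, SE 0.27), the ubiquitin-like TMUB2 (-1.21, SE 0.28) and the kinase TLK2 (-0.87, SE 0.27). All 5 lower calls, TMUB2 and TLK2 included, ended with total counts, TMM and DESeq2's size factors. The call for TLK2 held in 6 of 13 settings and also ended without either EV library given interferon-gamma and without either such library labelled BTN1A1.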

How the data were processed

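The authors deposited 1 table of counts of barcodes for 770 probes in 6 libraries, without replicates; all 4620 values are whole numbers. How the authors made counts from scans, or used control probes, is not stated in the labels, and no background was subtracted here. Groups were taken from the treatment label. Counts were divided by the geometric mean of 18 panel housekeeping genes (the 20 listed without UBB and TFRC), and the 670 genes reaching 20 scaled counts in 2 or more libraries were tested. The list of 20 is that of the panel as known, since the table does not mark it; SF3A1 was corrected from a wrong symbol once the table was seen. edgeR 4.0.16 (R 4.3.3) fitted vector and condition across all genes, with a threshold of 0.05 on the adjusted p; DESeq2 1.42.0 and other scalings were alternatives. Each SE follows from the log2 difference and its F statistic. The fit was tested on simulated data with 1 spread for all genes, additive changes and steady housekeeping genes. Those settings are simpler than these data, so that test does not cover them. Binomial intervals are exact, at 95%, and log2 counting intervals assume Poisson counts. Values under 20 were raised to 20 for differences between single libraries across all genes.

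The 4 genes and the gene lists were chosen with earlier results of these data known. Named genes are the 4 members, the 3 nearest to each, and per list up to 4 called genes with the largest difference, or 2 without a call; those shown are a subset, and some items are not reported here. Identity and interferon check genes and housekeeping genes were named as checks. Of the probe names 756 matched current RefSeq symbols (GRCh38.p14), 6 only synonyms and 8 neither.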

Additional observations from a re-analysis of the deposited data

Results flagged for a closer look

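In 4 cases a gene moved in opposite directions in the 2 vectors, each beyond its counting interval, with 1 library per point, so the difference was not tested. Counting intervals leave out the error of scaling. The share of all genes with such opposite moves was not counted, so nothing is read from the number of cases. TFRC at 24 h against untreated was lower in EV and higher in the libraries labelled BTN1A1, with responses 1.86 apart on the log2 scale. The EV difference of TFRC, -0.20, became 0.020 with DESeq2's size factors. From 24 to 48 h RPL23 and RPL7A were lower in EV and higher in the libraries labelled BTN1A1, 0.87 and 1.05 apart. For RPL23 at 48 h against untreated the responses were 0.41 apart, and the rise in the libraries labelled BTN1A1 was only 0.03 and changed sign with other scalings.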

How the results depend on the processing

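No paired analysis was possible because the labels carry no replicate numbers that could serve as a block; the vectors were set side by side within each condition, and condition is a term of the fit. The mean vector difference of the 4 genes kept its direction in every scaling. With all 20 housekeeping genes it was 2.21 for RPL23, 2.04 for RPL7A and 0.43 for UBB, with total counts 2.75, 2.58 and 0.97 and -1.07 for TFRC. With TMM it was 2.55, 2.37, 0.77 and -1.28, with DESeq2's size factors 2.54, 2.37, 0.76 and -1.28, and with total counts less the 4 genes (chosen after seeing the data) 3.17, 2.99, 1.38 and -0.66. Leaving out 1 library gave 1.93 to 2.37 for RPL23, 1.71 to 2.24 for RPL7A, 0.24 to 0.44 for UBB and -2.17 to -1.25 for TFRC.

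From 24 to 48 h the mean over both vectors was 0.03 for RPL23 and 0.06 for RPL7A, means of opposite moves. It was 0.12 and 0.15 with all 20 housekeeping genes, -0.016 and 0.012 with total counts, -0.13 and -0.10 with TMM and -0.17 and -0.14 with DESeq2's size factors. UBB was at -0.42, -0.56, -0.67 and -0.71 in the same order, and TFRC at -1.44 with TMM and -1.49 with DESeq2's size factors. Leaving out 1 library gave -0.40 to 0.47 for RPL23, -0.47 to 0.59 for RPL7A, -0.68 to -0.33 for UBB and -1.84 to -0.73 for TFRC.

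Small differences between single libraries changed sign. RPL23 at 48 h against untreated in the libraries labelled BTN1A1 (0.03) became -0.033 with total counts, -0.32 with TMM, -0.35 with DESeq2's size factors and -0.064 with total counts less the 4 genes. In EV at 24 h RPL7A (-0.07) became 0.11 with TMM and 0.15 with DESeq2's size factors, UBB (0.21) became -0.25 with total counts and -0.29 with total counts less the 4 genes, and TFRC (-0.20) became 0.020 with DESeq2's size factors. UBB in EV at 48 h (-0.12) became 0.036 with DESeq2's size factors, and TFRC between the vectors at 24 h (-0.69) became 0.33 with total counts less the 4 genes. Leaving out 1 library gave -0.44 to 0.021 for RPL23 and -0.20 to 1.66 for TFRC at 24 h against untreated, and -0.38 to 0.026 for RPL23 at 48 h against untreated. For these means each end is the value of 1 vector alone. The other causes were not tested.

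Called genes numbered 292 between the vectors, and 248 to 308 without 1 library. At 24 h (5 called) edgeR called 0 with all 20 housekeeping genes, with TMM, with DESeq2's size factors and with a minimum of 50 (58, 53, 60 and 42 at an unadjusted p under 0.05), 25 with total counts, and DESeq2 called 28. At 48 h (11 called) edgeR called 6 with all 20 housekeeping genes, 29 with total counts and 0 with TMM, DESeq2's size factors and a minimum of 50 (37, 45 and 40 unadjusted), and DESeq2 called 32. From 24 to 48 h (0 called) there were 2 with total counts and 5 with DESeq2. Leaving out 1 library gave 6 to 94 at 24 h, 11 to 94 at 48 h and 0 to 11 from 24 to 48 h. Without the untreated library labelled BTN1A1 the counts were 94, 94 and 11, without its 24 h library 45, 56 and 5, and without its 48 h library 6, 28 and 0. Without the untreated EV library they were 9, 11 and 11, without EV at 24 h 12, 51 and 11, and without EV at 48 h 30, 12 and 0.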
